A study of Mus musculus with 6 samples.

Results

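Heat shock proteins are chaperones, proteins that help others to fold, keep them from clumping and take part in their repair or disposal. The 10 genes described here encode chaperones of the cytosol and of the mitochondrial matrix: Hspa1a, Hspa1b and Hspa8 (the HSP70 family), Hsph1 (HSP110), Dnajb1 (a J-domain protein), Hsp90aa1 and Hsp90ab1 (HSP90), Hspb1 (a small heat shock protein), and Hspd1 and Hspe1 (HSP60 and HSP10 of the mitochondrion). They were taken as a named list, 10 of the 54018 genes for which reads were summed. The list was chosen with earlier results of these data known, so shares of the 10 set beside those of all genes are descriptions. All 10 were among the 17027 genes that passed the filter on low counts.

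Total RNA came from satellite cells, the resident stem cells of skeletal muscle, of adult C57BL/6 mice. In every group, cardiotoxin (a snake toxin used to injure muscle) was given into the tibialis anterior and gastrocnemius, and fluorescence sorting followed 30 h after the injury. There were 2 libraries each of Jmjd3 KO, of Utx KO and of Tdt control. JMJD3 (gene Kdm6b) and UTX (gene Kdm6a) are demethylases that act on a repressive mark of histone H3. The labels do not say what drives the deletions, what else the control cells carry, or how many animals stand behind a library. The p-values therefore measure only the spread between these libraries, which may be technical.

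Heat and other stress that unfolds proteins activate heat shock factor 1, which binds repeated short elements in promoters and raises the transcription of chaperone genes. HSP70 proteins hold unfolded stretches in a cycle driven by ATP. J-domain proteins such as the product of Dnajb1 deliver clients and start the cycle, and HSP110 proteins such as that of Hsph1 release the nucleotide and reset it. HSP90 takes over clients that are nearly folded, among them kinases and steroid receptors. HSP60 forms a barrel in the mitochondrion that is closed by a lid of HSP10. Muscle stem cells leaving quiescence enlarge and make more protein, and the enzymatic and mechanical steps by which cells are taken from tissue are known to raise some of these genes.

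The heat shock factor binding element is built of repeated 5-base units, in which GAA and its reverse complement TTC alternate. RefSeq (GRCm38.p6) promoter windows were at hand for 7 of the 10 genes, and Hspa8, Hsp90aa1 and Hsp90ab1 were not matched. The 250 bases before each start were searched on both strands for 2 alternating units, GAANNTTC or TTCNNGAA, and for 3, GAANNTTCNNGAA or TTCNNGAANNTTC, in which any match to 3 units also holds 2. A match to 2 units stood in the windows of 6 of the 7 genes (85.7%), all but Dnajb1, against 14.5% of the 27025 genes with such a window. A match to 3 units stood in 2 of the 7, Hspd1 and Hspe1, against 0.514% of genes. The matches are shown because they are a sequence feature that most of these genes share. Capitals mark the matched run, and each line reads 5′ to 3′ on the strand of the gene.
Hsph1, chr5:149636351-149636380, minus strand, match 33 bases before the start: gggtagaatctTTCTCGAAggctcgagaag
Hspa1a, chr17:34972242-34972271, minus strand, match 104 bases before the start: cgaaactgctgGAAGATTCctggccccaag
Hspa1b, chr17:34959324-34959353, minus strand, match 104 bases before the start: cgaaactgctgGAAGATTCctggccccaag
Hspb1, chr5:135887791-135887820, plus strand, match 117 bases before the start: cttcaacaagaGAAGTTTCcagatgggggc
Hspb1, chr5:135887811-135887840, plus strand, match 97 bases before the start: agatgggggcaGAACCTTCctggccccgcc
Hspd1, chr1:55088053-55088082, minus strand, match 144 bases before the start: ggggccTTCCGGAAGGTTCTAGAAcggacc
Hspe1, chr1:55088053-55088082, plus strand, match 89 bases before the start: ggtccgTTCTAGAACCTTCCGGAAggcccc

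The last 2 lines are both strands of 1 stretch of DNA, so the 2 genes with a match to 3 units hold the same match. Hspd1 and Hspe1 are neighbours that are read in opposite directions, and the 18-base run lies between the start of the main Hspd1 transcript (chr1:55077835-55088024, minus strand) and that of Hspe1 (chr1:55088132-55091307, plus strand). For Hspd1 the match was found before the second of its RefSeq starts and not before the first. The Hspa1a and Hspa1b lines are identical. Their windows (chr17:34972157-34972406 and chr17:34959239-34959488) differed at 3 of 250 bases. The 6 genes with a match to 2 units therefore do not hold 6 separate matches, and the shares above count each gene once. A match in letters is a description, and no binding was measured.

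The copies matter for counting as well. The Hspa1a and Hspa1b transcripts were 99.2% identical over 2201 aligned bases, so many of their reads fit both transcripts and were divided by the quantifier, and the values of each alone are uncertain. Processed pseudogenes and other non-coding copies held few reads. The largest share was that of the 10 copies of Hspa8, which had 0.255% as many reads as Hspa8 itself, followed by the 5 copies of Hsp90aa1 with 0.125%. No copy that met the identity limit was found for Hsph1 or Dnajb1.

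Levels were compared between genes as TPM (a scale per transcript length) summed over protein-coding transcripts. Hspa8, the constitutive HSP70, was the highest, with a median TPM of 1126 over the 6 libraries (1011 to 1159) and rank 29 among 21614 coding genes. Hsp90ab1, the constitutive HSP90, followed with a median TPM of 577, and then Hspd1 with 425, the stress-responsive HSP90 gene Hsp90aa1 with 374 and Hspe1 with 314. Hspb1, whose product binds unfolding proteins and actin filaments, had a median TPM of 151. The stress-inducible HSP70 genes Hspa1b and Hspa1a stood at 71.1 and 57.1, and Hsph1 at 47.6. Dnajb1 was the lowest at 20.6 (18.5 to 24.1), rank 2500.

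The order was the same in every library, except that Hspa1a and Hsph1 exchanged the eighth and ninth places. Hspa1a ran from 40.7 to 71.2 and Hsph1 from 44.1 to 64.8, so these neighbours did not differ beyond their spread. Hspa1b (50.1 to 84.1) stood above both in each library, although the ranges over the 6 libraries overlap.

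**Figure D1:**
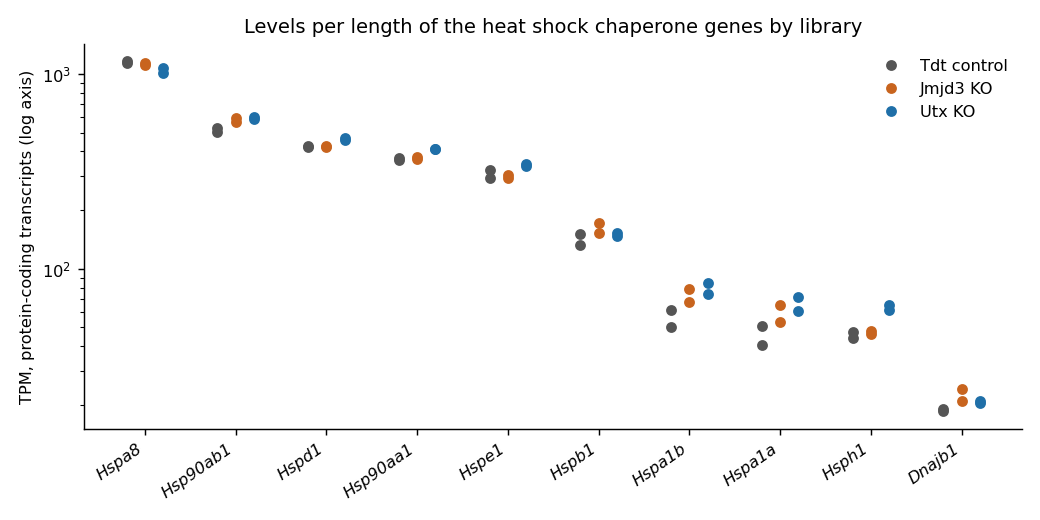
TPM of protein-coding transcripts of each gene on a log axis, with 1 point per library and a colour per genotype. Median levels run from 1126 for Hspa8 down to 20.6 for Dnajb1, and the points of Hspa1b, Hspa1a and Hsph1 share a range.

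Most of these genes were read as 1 transcript. For Dnajb1, Hspb1, Hspd1 and Hspe1 the main transcript held 98.3% or more of the summed TPM, and Hspa1a and Hspa1b have 1 annotated transcript each. Hsph1 was spread over Hsph1-211 (41.5%), Hsph1-209 (21.9%), Hsph1-201 (19.9%) and Hsph1-202 (5.12%), all annotated as coding. For Hspa8, 28.9% of the TPM went to Hspa8-203, a processed transcript of 598 bases without a coding frame. Hsp90aa1-204, a retained intron of 325 bases, took 16.7% for its gene, and Hsp90ab1-206, annotated as a target of nonsense-mediated decay, took 18.3%. Shares between transcripts that overlap are estimates of the quantifier.

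Values across genotypes are given as CPM, reads scaled to a common normalised library size, which compare a gene between libraries. The quasi-likelihood test of edgeR was used, with Benjamini-Hochberg adjustment over the 17027 genes tested, and a gene counted as called where its adjusted p was under 0.05. Log2 fold changes carry their standard error. Both knockouts were compared with the same 2 control libraries, and were also compared with each other directly. In a bulk sample, fewer cells with a transcript and less of it per cell cannot be told apart.

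The 6 libraries held 53750675 to 77675388 estimated reads, and the 10 genes had from 4870 reads (Dnajb1) to 379097 reads (Hspa8) in a library. Kdm6a stood at 7.70 and 7.40 CPM in Utx KO against 32.9 and 34.0 in Tdt control. Kdm6b stood at 15.9 and 16.6 CPM in Jmjd3 KO against 29.9 and 22.8 in Tdt control. The 10 satellite cell markers, Pax7 and Myod1 among them, summed to 3907 to 4213 CPM, and none was at 0. Although this sum was narrow, single markers changed. In Utx KO against Tdt control edgeR called 3 of the 10 higher and 1 lower, against 0.781% and 0.916% of all genes tested. The median log2 fold change was 0.13, with 7 above 0. In Jmjd3 KO against Utx KO edgeR called 1 higher and 3 lower, against 5.08% and 2.87% (median -0.09, 8 below 0). With limma on TPM 0 were called in the first comparison, and 1 higher and 2 lower in the second. The second then had a median of -0.0064 (5 below 0), where that of all genes was 0.053. With transcript length offsets its median was -0.10 (8 below 0). The median lay on the same side of 0 as that of the chaperone genes in both comparisons, and its part in the results was not tested. Markers of mature fibres summed to 4910 to 7247 CPM. Those of lymphocytes came to at most 0.237 CPM.

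In Utx KO the HSP110 gene Hsph1 and the HSP90 gene Hsp90aa1 rose, and 9 of the 10 genes had both Utx KO libraries above both Tdt control libraries. Their folds were 1.36 and 1.15. These 2 of 10 genes were called, against 1.7% of all genes tested (0.781% higher, 0.916% lower), and none was called lower. Over all genes, 22.3% had both Utx KO libraries above both controls and 23.3% had them below. For Hspb1 the margin was small, with the lower Utx KO library at 151.8 CPM and the higher control at 151.7, and in TPM the groups overlapped. Hspa1a and Hspa1b, between which reads were divided, count as 2 of the 9. The median log2 fold change of the 10 was 0.18, and that of all genes tested was -0.0021.

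Hsph1 stood at 228 and 229 CPM in Tdt control and at 296 and 325 in Utx KO. The control values were nearly equal and both Utx KO values lay well above them. The mean rose from 228 ± 0.66 to 310 ± 20.4 CPM (SD, n = 2 each), a log2 fold change of 0.44 ± 0.06 (edgeR, adjusted p = 0.0182). The direction was the same in all 20 alternative analyses, at 0.38 to 0.51. The call was lost without either Tdt control library (adjusted p = 0.0924 and 0.0790), without either Utx KO library (0.0559 and 0.0622) and with limma on log2(TPM + 1) (0.105).

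Hsp90aa1 stood at 1614 and 1672 CPM in Tdt control and at 1909 and 1868 in Utx KO. The groups did not overlap, with a log2 fold change of 0.20 ± 0.03 (edgeR, adjusted p = 0.0339). It was called in 9 of 20 alternatives. The call was lost, among others, without any 1 of the 6 libraries (adjusted p from 0.0709 to 0.171), with offsets for transcript length (0.0690), with a filter of 5 CPM (0.0749), in a fit of the 4 libraries alone (0.0704) and with limma on TPM (0.263). Its value stayed between 0.17 and 0.23. Hsp90ab1, the other HSP90 gene, stood at 2671 and 2643 CPM in Tdt control and at 2977 and 3126 in Utx KO. Its log2 fold change of 0.20 ± 0.04 was as large and just missed the threshold (edgeR, adjusted p = 0.0539), and DESeq2 called it (adjusted p = 0.00593).

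The inducible HSP70 genes had the largest fold changes of the 10 in Utx KO and also the widest spread. Hspa1a stood at 249 and 187 CPM in Tdt control and at 321 and 292 in Utx KO. Hspa1b stood at 263 and 201 CPM in Tdt control and at 331 and 313 in Utx KO. In both genes the first control library lay much nearer to the Utx KO libraries than the second. The log2 fold changes of 0.49 ± 0.15 and 0.47 ± 0.13 were not called (edgeR, adjusted p = 0.163 and 0.133). For Hspa1a the value ran from 0.31 to 0.72 when 1 library was left out.

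Hspa8 was the only 1 of the 10 genes with both Utx KO libraries below both controls. It stood at 5000 and 4839 CPM in Tdt control and at 4269 and 4585 in Utx KO, a log2 fold change of -0.15 ± 0.04 that was not called (edgeR, adjusted p = 0.125). Hspd1 and Hspe1, which share their promoter stretch, had log2 fold changes of 0.15 ± 0.03 (adjusted p = 0.0788) and 0.16 ± 0.05 (adjusted p = 0.214) in the edgeR test. DESeq2 called Hspd1 (adjusted p = 0.0183). Dnajb1 and Hspb1 had values of 0.12 ± 0.08 and 0.06 ± 0.07, with adjusted p of 0.544 and 0.744 in edgeR.

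The authors' deposited table for Utx KO against Tdt control had 4 of the 10 genes at an adjusted p under 0.05. In the authors' deposited table these were Hsph1 (log2 fold change 0.44, adjusted p = 6.62e-10), Hspa1b (0.45, adjusted p = 0.00147), Hsp90ab1 (0.20, adjusted p = 0.00508) and Hsp90aa1 (0.15, adjusted p = 0.0215). The authors' deposited table gives Hspa1a only 0.09 (adjusted p = 0.191), although the near-identical Hspa1b has 0.45. In the counts summed here, Hspa1a and Hspa1b had log2 fold changes of 0.49 and 0.47. The fold changes of the authors' deposited table look shrunken towards 0, and no source used here names the method.

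**Figure D2:**
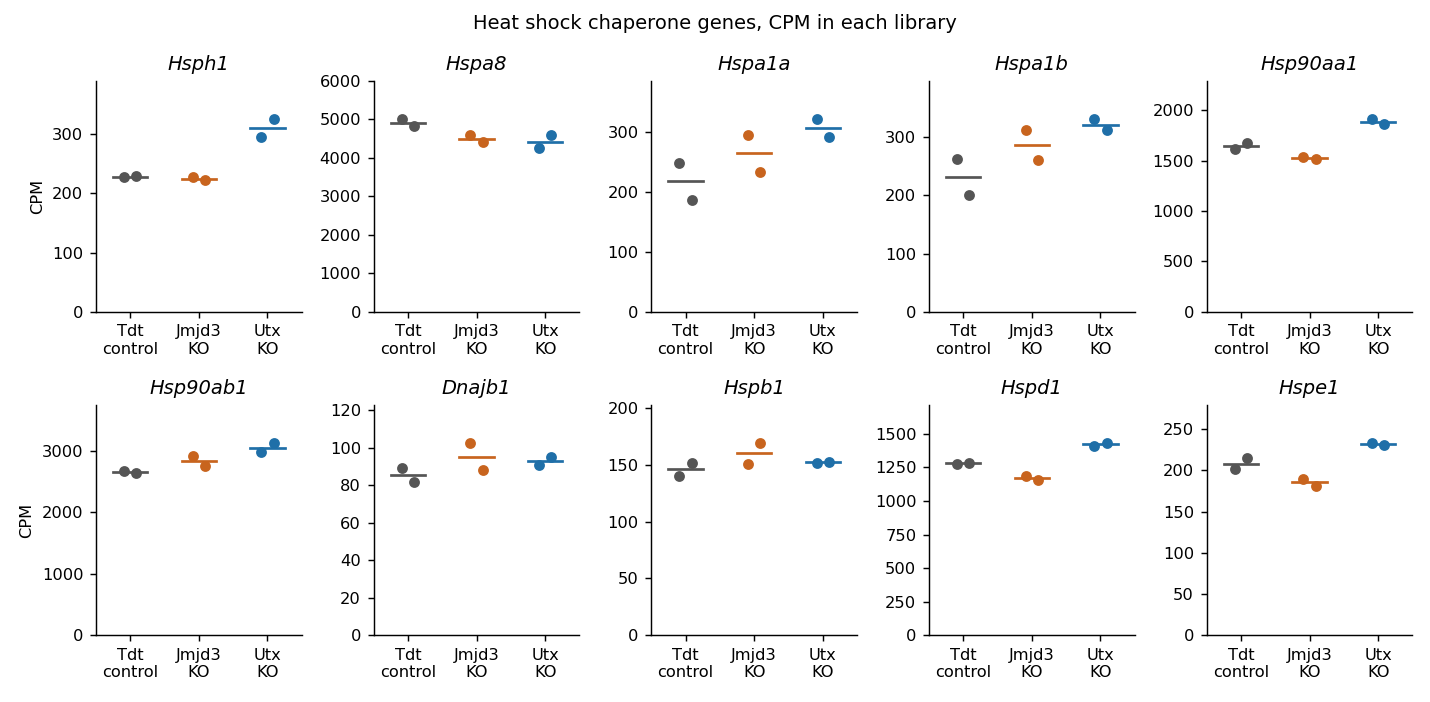
CPM of the 10 genes in each library (points) with the group mean (line), each panel with its own axis from 0. The Utx KO points of Hsph1, at 296 and 325, stand above the other 4 libraries, while the control points of Hspa1a and Hspa1b lie far apart.

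In Jmjd3 KO no gene of the 10 was called against Tdt control, where 2.95% of all genes tested were called (1.94% higher, 1.02% lower). At an unadjusted p under 0.05 there were 6, DESeq2 called 0, and 0 had an adjusted p under 0.05 in the authors' deposited table. The 10 split into 5 values above 0 and 5 below, with a median log2 fold change of 0.03. On the TPM scale (limma) 6 were above 0 and 4 below, with a median of 0.11, where that of all genes was 0.052. In CPM both Jmjd3 KO libraries lay below both controls for 5 genes and above them for 1, against 25.5% and 26.2% of all genes. In TPM summed over all transcripts the groups overlapped for each of those 5 genes.

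The 5 genes below 0 were Hspa8, Hsp90aa1, Hsph1 and the mitochondrial pair. Hspa8 stood at 4588 and 4413 CPM in Jmjd3 KO, below both controls, with a log2 fold change of -0.13 ± 0.04 (edgeR, adjusted p = 0.139). Hspd1 stood at 1189 and 1153 CPM against 1273 and 1285 in Tdt control, at -0.13 ± 0.03 (edgeR, adjusted p = 0.0895). Its partner Hspe1 stood at 190 and 181 CPM against 201 and 215, at -0.16 ± 0.05 (edgeR, adjusted p = 0.153). Hsp90aa1 had -0.11 ± 0.03 (edgeR, adjusted p = 0.137). For Hspa8, Hsp90aa1 and the mitochondrial pair the size depended on the scale. With limma on log2(TPM + 1) the values were -0.022 for Hspa8, -0.015 for Hsp90aa1, -0.0013 for Hspd1 and -0.05 for Hspe1. On that scale the median of all genes was 0.052.

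Hsph1 hardly moved in Jmjd3 KO, at 227 and 222 CPM against 228 and 229, a log2 fold change of -0.02 ± 0.06 (edgeR, adjusted p = 0.848). On the TPM scale its sign turned, to 0.03, where the median of all genes was 0.052. Among the 5 above 0, the inducible HSP70 genes had the largest values. Hspa1a stood at 296 and 234 CPM and Hspa1b at 313 and 261, and in both the groups overlapped. Their log2 fold changes were 0.28 ± 0.15 and 0.31 ± 0.13 (edgeR, adjusted p = 0.342 and 0.242). Dnajb1 (0.15 ± 0.08), Hspb1 (0.13 ± 0.07) and Hsp90ab1 (0.09 ± 0.04) had adjusted p of 0.366, 0.347 and 0.235 in edgeR.

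The direct comparison of the knockouts gave the most calls. Hsph1, Hsp90aa1, Hspd1 and Hspe1 were lower in Jmjd3 KO than in Utx KO, by 1.38-, 1.24-, 1.21- and 1.25-fold. These 4 of 10 genes were called, against 7.95% of all genes tested (2.87% lower and 5.08% higher in Jmjd3 KO), and 0 were called higher. Both Jmjd3 KO libraries lay below both Utx KO libraries for 6 of the 10, and above them for 0, against 28.7% and 28.5% of all genes. The median log2 fold change of the 10 was -0.19 (-0.12 with limma on TPM), and that of all genes tested was 0.0011 (0.053 on the TPM scale).

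For Hsph1 the log2 difference, Jmjd3 KO minus Utx KO, was -0.47 ± 0.06 (edgeR, adjusted p = 0.00441), and it was called in all 20 alternative analyses. For Hsp90aa1 the Jmjd3 KO libraries stood at 1533 and 1521 CPM and the Utx KO libraries at 1909 and 1868, a difference of -0.31 ± 0.03 (edgeR, adjusted p = 0.00318). In CPM the 2 control libraries lay between the knockouts for Hsp90aa1, and the same order held for Hspd1 and Hspe1. In TPM the Jmjd3 KO and control libraries overlapped for each, for Hspd1 at 425 and 423 against 422 and 426. Hspd1 stood at 1412 and 1430 CPM in Utx KO, giving -0.28 ± 0.03 (edgeR, adjusted p = 0.00450). Hspe1 stood at 233 and 231 CPM in Utx KO, giving -0.32 ± 0.05 (edgeR, adjusted p = 0.0152).

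Hsp90aa1 and Hspd1 were called in 19 of 20 alternatives each. The exception was limma on log2(TPM + 1), which gave -0.19 for Hsp90aa1 (adjusted p = 0.114), -0.13 for Hspd1 (0.143) and -0.18 for Hspe1 (0.155). With transcript length offsets in edgeR, which also correct for length, all 3 were called, at -0.28, -0.22 and -0.28. Hspe1 was not called without Jmjd3 KO replicate 1 (adjusted p = 0.0648), Jmjd3 KO replicate 2 (0.108), Utx KO replicate 1 (0.102) or Utx KO replicate 2 (0.0606). The other 6 genes had differences between -0.21 (Hspa1a) and 0.07 (Hspb1), with adjusted p of 0.136 or more in edgeR.

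**Figure D3:**
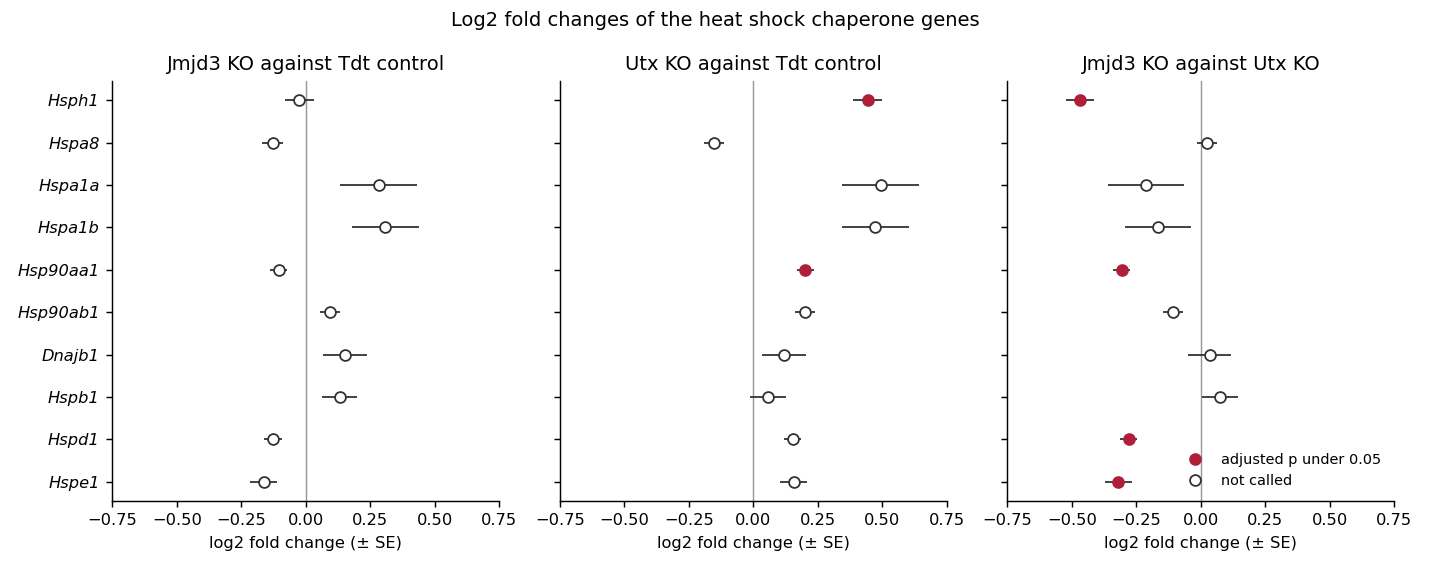
Log2 fold change of each gene (point) with its standard error (bar) in the 3 comparisons, filled where the edgeR adjusted p was under 0.05. No point is filled in Jmjd3 KO against Tdt control, 2 are filled in Utx KO against Tdt control and 4 in Jmjd3 KO against Utx KO.

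Markers of other cells were measured in the same libraries. The 6 erythroid markers, which are mainly globin genes, summed to 41.6 to 43.3 CPM in Utx KO, 31.7 to 38.3 in Tdt control and 28.2 to 37.7 in Jmjd3 KO, with 0 of 5 tested called by edgeR in each comparison and Slc4a1 at 0 in 1 Utx KO library. The erythroid genes at an unadjusted p under 0.05 in edgeR numbered 1 in Utx KO against Tdt control and 3 between the knockouts, where DESeq2 called 0 and 1. The 10 neutrophil markers summed to 176 to 203 CPM in Utx KO and 129 to 142 in Tdt control, with 1 of 9 tested called higher in Utx KO, and Ly6g at 0 in 1 control library. Both lists moved with the chaperone genes in Utx KO against Tdt control, as did the erythroid list between the knockouts, and their part in the results was not tested. Other lists had most values below 0 in Utx KO against Tdt control. All 8 markers of mural cells, which wrap vessels, were below 0 (median log2 fold change -0.40, 1 called lower by edgeR), with 7 below 0, a median of -0.12 and 0 called in limma on TPM. Values below 0 were also found for 9 of 10 macrophage and monocyte markers (median -0.43), 9 of 10 endothelial markers (-0.38) and 7 of 10 markers of fibro-adipogenic progenitors (-0.19). In these 3 lists edgeR called 0, beside 7, 5 and 8 genes at an unadjusted p under 0.05 and 3, 0 and 3 called by DESeq2, where 2 of the last 3 were higher. With limma on TPM the 3 medians were -0.28, -0.19 and -0.16. Between the knockouts the neutrophil sum was higher in Jmjd3 KO (203 to 266 CPM, 2 of 9 called), opposite to the 4 called chaperone genes. The macrophage and monocyte markers were also higher there (285 to 312 CPM against 186 to 220, 6 of 10 called). Of all genes tested, 5.08% were called higher in Jmjd3 KO than in Utx KO.

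Proportions between partners were taken from TPM of coding transcripts and have no test. Hspa1a and Hspa1b together made up 8.96% and 7.27% of the TPM of the cytosolic HSP70 genes Hspa1a, Hspa1b and Hspa8 in Tdt control. The share was 11.3% and 9.79% in Jmjd3 KO and 13.3% and 11.2% in Utx KO, so both knockouts lay above both controls. Hspa1a alone was 44.0% to 45.9% of the Hspa1a and Hspa1b sum in all 6 libraries. For transcripts that share reads this split is an estimate of the quantifier.

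Hsph1, which resets HSP70, came to 3.86% and 4.10% of the TPM of Hspa8 in Tdt control and to 4.21% and 4.12% in Jmjd3 KO. In Utx KO it came to 6.11% and 6.07%, above the other 4 libraries. Hsp90aa1 made up 41.8% and 41.4% of the HSP90 pair in Tdt control, 41.3% and 40.4% in Utx KO and 38.1% and 39.9% in Jmjd3 KO, the lowest 2 of the 6 values. The barrel and lid of the mitochondrial chaperonin kept a similar ratio, with 1.32 to 1.44 Hspd1 transcripts per Hspe1 transcript in the 6 libraries, and each knockout overlapped the control.

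**Figure D4:**
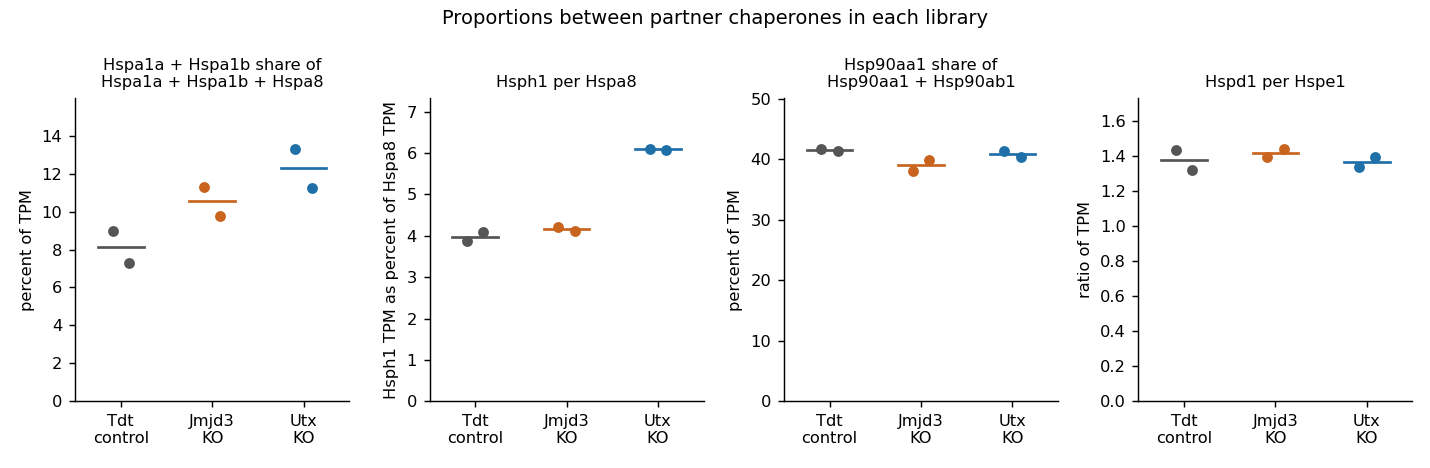
Ratios of TPM between partner genes in each library (points) with the group mean (line), axes from 0. Hsph1 per Hspa8 stands at 6.11% and 6.07% in Utx KO against 3.86% to 4.21% elsewhere, while Hspd1 per Hspe1 overlaps between each knockout and the control.

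The genes around these chaperones were taken from 9 lists. The list of heat shock factors and their binding protein holds 4 genes, among them Hsf1, the stress-activated factor. Hsf1 stood at 38.0 and 34.4 CPM in Tdt control, 41.2 and 41.3 in Jmjd3 KO and 40.9 and 41.7 in Utx KO, and was not called in either knockout (edgeR, adjusted p = 0.133 and 0.168). Both knockouts lay above both controls. Of this list 1 gene was called in 1 comparison, Hsf4, which was higher in Jmjd3 KO than in Utx KO at a low level (means of 2.12 and 1.11 CPM). That call was lost without any 1 of the 4 libraries compared (adjusted p from 0.0862 to 0.108).

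Among 7 other HSP70 and HSP110 genes, Hspa4l rose in Utx KO. Like Hsph1 it encodes an HSP110 protein. It stood at 37.0 and 37.9 CPM in Tdt control, 39.4 and 38.8 in Jmjd3 KO and 51.9 and 55.0 in Utx KO. The Utx KO libraries lay apart from the other 4, as for Hsph1. Its log2 fold change was 0.51 ± 0.05 against Tdt control (edgeR, adjusted p = 0.00934), a call lost without Tdt control replicate 1 (0.0544), without Utx KO replicate 2 (0.0501) and with limma on TPM (0.130). Jmjd3 KO minus Utx KO gave -0.45 ± 0.05 (adjusted p = 0.00366), called in 19 of 20 alternatives, the exception being limma on TPM (0.112). Hspa4, the third HSP110 gene, had 0.10 in Utx KO against Tdt control and -0.20 in Jmjd3 KO against Utx KO. The second was called (adjusted p = 0.0354) and was lost without any 1 of the 4 libraries compared (0.0717 to 0.201), with transcript length offsets (0.0943) and with limma on TPM, where the value was smaller (0.520).

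Of 15 partners of HSP70, edgeR called 1, in Jmjd3 KO against Tdt control, and none elsewhere. Dnajb2, a J-domain protein that sorts clients towards degradation, rose in Jmjd3 KO (0.34, adjusted p = 0.0316), and the call was lost without any 1 of the 4 libraries compared (0.104 to 0.207), with transcript length offsets (0.228) and with limma on TPM (0.0907). The 0 calls in Utx KO against Tdt control stood beside 4 genes at an unadjusted p under 0.05 and 1 called by DESeq2, and those in Jmjd3 KO against Utx KO beside 7 and 2. Of 18 partners of HSP90, edgeR called 0 against Tdt control in either knockout, with 4 in Jmjd3 KO and 5 in Utx KO at an unadjusted p under 0.05, where DESeq2 called 0 and 4. Between the knockouts 3 were called lower in Jmjd3 KO, against 2.87% of all genes. In edgeR these were the immunophilins Fkbp4 (-0.26, adjusted p = 0.0116), Fkbp5 (-0.36, adjusted p = 0.0142) and Ppid (-0.28, adjusted p = 0.0473). Of the 18 values 15 were below 0, with a median of -0.15. With transcript length offsets 15 were below 0, with a median of -0.10. With limma on TPM 10 were below 0, with a median of -0.0057, where that of all genes was 0.053. Fkbp4 (adjusted p from 0.0532 to 0.0927) and Ppid (0.0757 to 0.246) were lost without any 1 of the 4 libraries compared, and Fkbp5 without either Jmjd3 KO library or Utx KO replicate 1 (up to 0.102). With limma on TPM all 3 were lost (0.140, 0.378 and 0.0949). The muscle myosin chaperone Unc45b went the other way (0.49, adjusted p = 0.0319), and was lost without any 1 of the 4 (0.0522 to 0.180).

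Cryab, a small heat shock protein abundant in muscle fibres, was also higher in Jmjd3 KO than in Utx KO, at 198 and 230 CPM against 134 and 144. Its log2 fold change was 0.63 ± 0.10 (edgeR, adjusted p = 0.0111), a call lost without Jmjd3 KO replicate 2 (0.0608) or Utx KO replicate 1 (0.0873). The other 5 small heat shock protein genes tested were not called in any of the 3 comparisons. Beside Cryab and Unc45b stand the 12 mature fibre markers, with 5 of 12 called higher, against 5.08% of all genes. Their sum was 6973 to 7247 CPM in Jmjd3 KO and 4910 to 5776 in Utx KO. The part of fibre RNA in these values was not tested.

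All 14 subunits of the cytosolic chaperonin and prefoldin, which fold actin and tubulin, had values below 0 in Jmjd3 KO, both against Tdt control (median -0.10, 0 called by edgeR, 7 at an unadjusted p under 0.05, 2 called by DESeq2) and against Utx KO (median -0.10, 1 called). With limma on TPM 7 and 8 of 14 values were below 0, with medians of 0.0026 and -0.018. On that scale the medians of all genes were 0.052 and 0.053. With transcript length offsets 13 of 14 were below 0 in both comparisons, with medians of -0.087 and -0.11. The called gene was Cct6a (-0.20, adjusted p = 0.0303), lost without any 1 of the 4 libraries compared (0.0590 to 0.200), with transcript length offsets (0.0748) and with limma on TPM (0.480). Of 15 other mitochondrial chaperones and proteases, edgeR called 0 in each comparison. The medians were -0.02, 0.0082 and -0.04 in Jmjd3 KO against Tdt control, Utx KO against Tdt control and Jmjd3 KO against Utx KO, with 2, 0 and 1 genes at an unadjusted p under 0.05 and 0, 0 and 1 called by DESeq2. With limma on TPM 12 of 15 values were above 0 in both comparisons of Jmjd3 KO, with a median of 0.080 in each. The medians of all genes on that scale were 0.052 and 0.053. With transcript length offsets 10 and 8 of 15 were below 0, with medians of -0.011 and -0.0098.

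Of 5 other heat-inducible genes, Serpinh1, a collagen chaperone of the endoplasmic reticulum, rose in Utx KO. It stood at 516 and 547 CPM in Tdt control, 555 and 527 in Jmjd3 KO and 681 and 727 in Utx KO, with a log2 fold change of 0.41 ± 0.05 against Tdt control (edgeR, adjusted p = 0.0186). This call was lost without any 1 of the 4 libraries compared (0.0576 to 0.0924) and with limma on TPM (0.123). That between the knockouts (-0.38, adjusted p = 0.00741) was lost without Jmjd3 KO replicate 2 (0.0585) and with limma on TPM (0.0765).

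The early-response list holds genes that are known to rise while cells are isolated. In Jmjd3 KO 5 of 13 were called higher against Tdt control and 0 lower, where 1.94% of all genes were called higher. Of the 13, 12 lay above 0 and 1 below, Fosb at -0.31 (edgeR, adjusted p = 0.0687). Both its Jmjd3 KO libraries lay below both controls. The median of the 13 was 0.24, and they were led by Ier3 at 0.83 (edgeR, adjusted p = 0.000938), the only one of the 5 called in all 20 alternatives. Jund, Egr1, Zfp36 and Nr4a1 were lost without either Jmjd3 KO library or Tdt control replicate 1 (adjusted p from 0.0513 to 0.229). In Jmjd3 KO against Utx KO 6 of 13 were called higher, against 5.08% of all genes, and all 13 values were above 0 (median 0.25). All 6 (Fos, Jund, Egr1, Ier3, Dusp1 and Zfp36) lost their call without Utx KO replicate 1 (0.0511 to 0.176). In Utx KO against Tdt control Ier3 rose (0.39) and Fosb fell (-0.48), with a median of -0.03 over the list. Both calls were lost without any 1 of the 4 libraries compared (0.0697 to 0.135 and 0.0664 to 0.175). Some markers of other cells were also higher in Jmjd3 KO than in Tdt control. Above 0 were 9 of 9 neutrophil markers (median 0.74, 4 called by edgeR) and 12 of 12 mature fibre markers (median 0.27, 3 called). So were 8 of 10 macrophage and monocyte markers and 7 of 10 of fibro-adipogenic progenitors. Below 0 were 9 of 10 endothelial (median -0.12), 5 of 8 mural (-0.02) and 5 of 5 erythroid markers (-0.14), with 0 called. The part of other cells in the early-response values, and of the early-response genes in the chaperone values, was not tested.

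**Figure D5:**
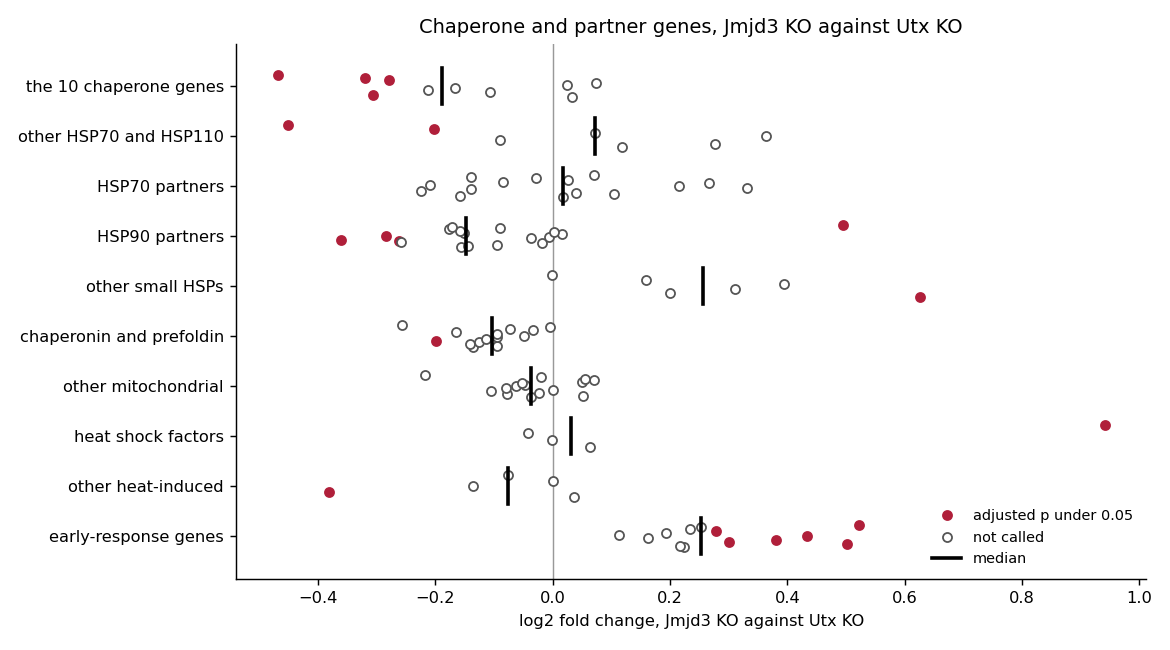
Log2 fold change of each gene in Jmjd3 KO against Utx KO, by list, with filled points at an edgeR adjusted p under 0.05 and a black line at the list's median. The 10 chaperone genes have a median of -0.19 and 4 called values on the lower side, whereas the early-response genes have a median of 0.25 and 6 called values on the higher side.

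The genes outside these lists whose pattern over the 6 libraries was most like the mean of the 10 were Arhgap6, Ip6k2, Rap1gds1, Plod2 and Cldnd1, with Pearson correlations of log2 CPM from 0.992 to 0.981. For Hsph1 alone they were Uros, Hltf, Gxylt2, Zic1 and Pcyox1, at 0.994 to 0.992. Gxylt2, for example, stood at 35.7 and 37.1 CPM in Tdt control, 35.9 and 34.8 in Jmjd3 KO and 43.5 and 46.5 in Utx KO. These are the highest of 9514 genes searched, over only 6 libraries in 3 groups, and are given as a description.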

How the data were processed

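Total RNA of 6 sorted satellite cell libraries was sequenced. Per the submitters' processing notes, cutadapt 2.6, Salmon 1.1.0 and DESeq2 1.28.1 were used, with builds mm10 and GRCm38; what each did and the annotation release are not given in the sources used here. Each deposited quantification file lists transcripts with an estimated count of reads and a TPM, per the file headers. The tables of comparisons that the authors deposited hold a mean signal of normalised counts, log2 fold changes, p-values and adjusted p-values, per the file headers; they were read for the 10 genes only.

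Gene totals are rounded sums of the estimated counts of a gene's transcripts in GENCODE M21 (GRCm38); 0.380% to 0.422% of reads lay in transcripts outside it. The main analysis used edgeR 4.0.16 in R 4.3.3: filterByExpr, TMM factors, a single model of genotype over all libraries and the quasi-likelihood test, adjusted by Benjamini-Hochberg over 17027 genes (common biological coefficient of variation 0.0849, 3 residual degrees of freedom, 4.59 prior). The script was tested on simulated data with 200 changed genes. Replicates differed by more than sampling noise (chi-square per gene of 14.4 to 24.1).

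The 10 genes and the 20 gene lists (194 of 195 entries matched) were chosen with earlier results of these data known. All 10 genes were named in each comparison. From the 9 companion lists, called genes and up to 4 further members with the smallest p could be named; the HSP110 gene Hspa4 in Utx KO was named for its family. The 5 genes of most similar pattern were taken among coding genes with a mean of at least 5 CPM. Copies were non-coding genes at least 90% identical over at least 50% of their transcript and 100 bases. Promoter sequences are from RefSeq. The alternatives were RLE and upper-quartile factors, DESeq2 1.42.0, no low-count filter, limma 3.58.1 on log2(TPM + 1), transcript length offsets, at least 5 CPM in 2 libraries, coding genes alone, a replicate block, a fit of the 4 libraries compared, Hspa1a and Hspa1b summed, named pseudogenes added and each library left out. Adding all near-identical pseudogenes, and summing protein-coding transcripts only, were chosen after seeing the data.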

Additional observations from a re-analysis of the deposited data

Results flagged for a closer look

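For 4 of the 10 genes the effects of the 2 knockouts differed when the knockouts were tested against each other. The log2 difference, Jmjd3 KO minus Utx KO, was -0.47 for Hsph1, -0.31 for Hsp90aa1, -0.28 for Hspd1 and -0.32 for Hspe1, with edgeR adjusted p of 0.00441, 0.00318, 0.00450 and 0.0152. Each was lower in both Jmjd3 KO libraries than in both Utx KO libraries. The difference for Hsph1 comes with a Jmjd3 KO level close to that of Tdt control. For the other 3 the Tdt control libraries lay between the knockouts in CPM, while in TPM they overlapped those of Jmjd3 KO.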

How the results depend on the processing

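Over 20 alternatives the log2 fold changes of the 10 genes gave 597 values, of which 556 kept their direction and side of the threshold, 23 fell out of the calls, 13 came into them and 5 turned in sign. In Utx KO against Tdt control, where 2 of the 10 were called, DESeq2 called 4, no low-count filter 7, the filter of 5 CPM 1, transcript length offsets 1, limma on log2(TPM + 1) 0 and the 4 libraries alone 1, and leaving out each library in turn gave 0 to 1. In Jmjd3 KO against Tdt control, 3 (Hspa8, Hspa1a and Hspa1b) were called with no low-count filter and 0 under every other alternative. In Jmjd3 KO against Utx KO the 4 calls became 6 with no low-count filter, 1 (Hsph1) with limma on TPM, and 3 to 4 with 1 library left out; a group left with 1 library was assumed to vary like the others. The values that turned in sign were never called: Hsph1 in Jmjd3 KO against Tdt control (0.032 with limma on TPM) and, in Jmjd3 KO against Utx KO, Hspa8 (-0.027 to 0.075 with 1 library left out, below 0 without Jmjd3 KO replicate 1 or Utx KO replicate 1), Dnajb1 (-0.081 to 0.14, below 0 without Jmjd3 KO replicate 1) and Hspb1 (-0.010 to 0.15, below 0 without Jmjd3 KO replicate 2). The cause was not tested.

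Called genes over the whole table numbered 503, 289 and 1353 in Jmjd3 KO against Tdt control, Utx KO against Tdt control and Jmjd3 KO against Utx KO. They were 1030, 652 and 1768 with DESeq2, 1870, 1387 and 2839 with no low-count filter, 320, 131 and 782 with transcript length offsets, 209, 11 and 811 with limma on TPM, and 118 in Utx KO in the 4-library fit; leaving out 1 library gave 108 to 424, 17 to 92 and 282 to 1369. With the replicate block they were 325, 134 and 949, and 0, 2 and 4 of the 10 genes were called; in Utx KO against Tdt control Hspa1a came into the calls (0.51, adjusted p = 0.0456) and Hsp90aa1 fell out (0.20, 0.109), while Dnajb2, Nr4a1, Hspa4, Ppid and Cct6a, and Fosb and Ier3 in Utx KO, were also lost. Libraries with the same number did not deviate together (correlations over genes of 0.0100, -0.00557 and -0.0378), so they share only a number. The TPM scale moved the median of all genes by about 0.05 in both comparisons of Jmjd3 KO. The 10 genes had 4870 reads or more in each library, and the 2 libraries a group leave 3 residual degrees of freedom.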
